A study of Mus musculus with 8 samples.

Results

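Spi1 encodes PU.1, an ETS-family transcription factor of blood cells, and this account covers the C/EBPα peak regions at its locus. The peak lists of 6 libraries were joined into 1 union, with peaks that shared at least 1 bp placed in 1 region, and every region within 50 kb of the annotated Spi1 gene was kept. Of 259446 regions in the union, 35 lay in this window, which spans 133 kb of chromosome 2 in mm10. The assay was CUT&RUN: a nuclease tethered to an antibody cuts out the DNA around the bound protein, and the freed fragments are sequenced. The cells were mouse bone marrow progenitors sorted as Lin- KIThi-int FLT3+, a label that a binding assay cannot check against expression. The genotypes were WT and 2 variants of an enhancer placed at -165 kb of Zeb2, which the labels call DC and DE. The header of the deposited merged table names its genotypes WT, D123 and DE234. None of these abbreviations is spelled out in the sources used here, and neither are the strain and age of the mice or their number per library. Each genotype had 2 C/EBPα libraries, 1 in each of 2 batches, so replicate 1 of every genotype belongs to batch 1 and replicate 2 to batch 2. IgG libraries were made from WT cells only, 1 per batch, and they are not analysed here. The same 2 WT libraries served as the controls for DC and for DE. Nothing in the labels tells whether the 2 libraries of a genotype had separate animals as their source. The p-values therefore measure the spread between these libraries, which may be technical.

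PU.1 and C/EBPα work together in myeloid cells: PU.1 primes enhancers of macrophages and granulocytes, and C/EBPα binds many of the same elements. The dose of PU.1 bears on lineage choice, and the Spi1 gene is controlled by a promoter and by a distal upstream regulatory element, the URE. In mouse the URE is known to lie about 14 kb upstream of the classic promoter, and C/EBPα, RUNX1 and PU.1 itself are among the factors described to bind it. The RefSeq gene on GRCm38.p6 (gene 20375) runs from 91082374 to 91115759 on chromosome 2, a span of 33.4 kb. That span covers alternative upstream transcript starts as well as the classic promoter. The annotation used here gives gene spans and not the start of each transcript, so no region was assigned to the URE or to the classic promoter. Positions below are distances of the median summit from the upstream end of this span, negative where the summit lies outside and upstream of it.

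No Spi1 promoter entry was found in the sequence table used here, which held promoters for 4 of the 8 genes in the window. The 1 window region called in all 6 libraries for which promoter sequence was at hand is at the 5′ end of Slc39a13, a zinc transporter gene on the minus strand upstream of Spi1. The 250 bases before its start site at 91070315 (RefSeq, GRCm38.p6, chr2:91070316-91070565, minus strand) are shown because the summits of all 6 libraries fell between 91070492 and 91070611, at and just beyond their 5′ end. The annotated Slc39a13 span reaches 91070441, so this start site lies inside the gene and part of the stretch does too. The summits lie outside that span and inside the lncRNA gene Gm39874. Capitals mark the 74 bases that lie under this span of summits.

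Slc39a13 promoter: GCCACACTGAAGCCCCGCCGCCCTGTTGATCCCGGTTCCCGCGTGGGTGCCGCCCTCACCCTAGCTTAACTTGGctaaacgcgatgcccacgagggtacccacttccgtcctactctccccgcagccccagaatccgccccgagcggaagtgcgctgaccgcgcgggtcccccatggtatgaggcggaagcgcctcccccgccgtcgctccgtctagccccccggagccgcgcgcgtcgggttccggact

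The stretch is GC-rich, at 70.4% G or C. C/EBP factors bind as dimers to palindromic sites close to TTGCGCAA. Neither that palindrome nor the looser forms TTGCNNAA and TTNNGNAA, searched on both strands, was present in these 250 bases. The looser forms also match wherever a stricter one does. Among 32851 promoters of the same length in the table, 0.164% held TTGCGCAA, 9.56% held TTGCNNAA and 36.8% held TTNNGNAA.

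C/EBPα peaks lay across the Spi1 gene and its upstream flank, and all 8 regions called in both WT libraries were called again in both DC and both DE libraries. Of these, 5 lay inside Spi1 and the other 3 upstream of it. None of the 7 regions beyond the downstream end of the gene was called in all 6 libraries. The 8 regions were 22.9% of the 35 in the window, and regions called in all 6 libraries were 9.05% of the union. The share of WT regions called in both DC libraries was 81.8% over the genome, and the share called in both DE libraries was 82.7%. With 8 regions, the exact 95% interval of the window's share reaches down to 63.1% (Clopper-Pearson, counting error only), so a difference from the genome could not be shown. The interval treats neighbouring regions, called in the same 6 libraries, as independent and holds no spread between libraries. With the window widened to 100 kb the count was 11 of 13 for each variant, and with 1 batch alone it was 9 of 11 and 12 of 14 for DC and 8 of 11 and 11 of 14 for DE. No window region had a call in both libraries of 1 genotype and in neither library of another. Over the union, 0.39% of regions were in both WT and neither DC library, 0.638% in both WT and neither DE, 1.52% in both DC and neither WT, 0.846% in both DE and neither WT, and 1.02% in both DC and neither DE.

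**Figure D1:**
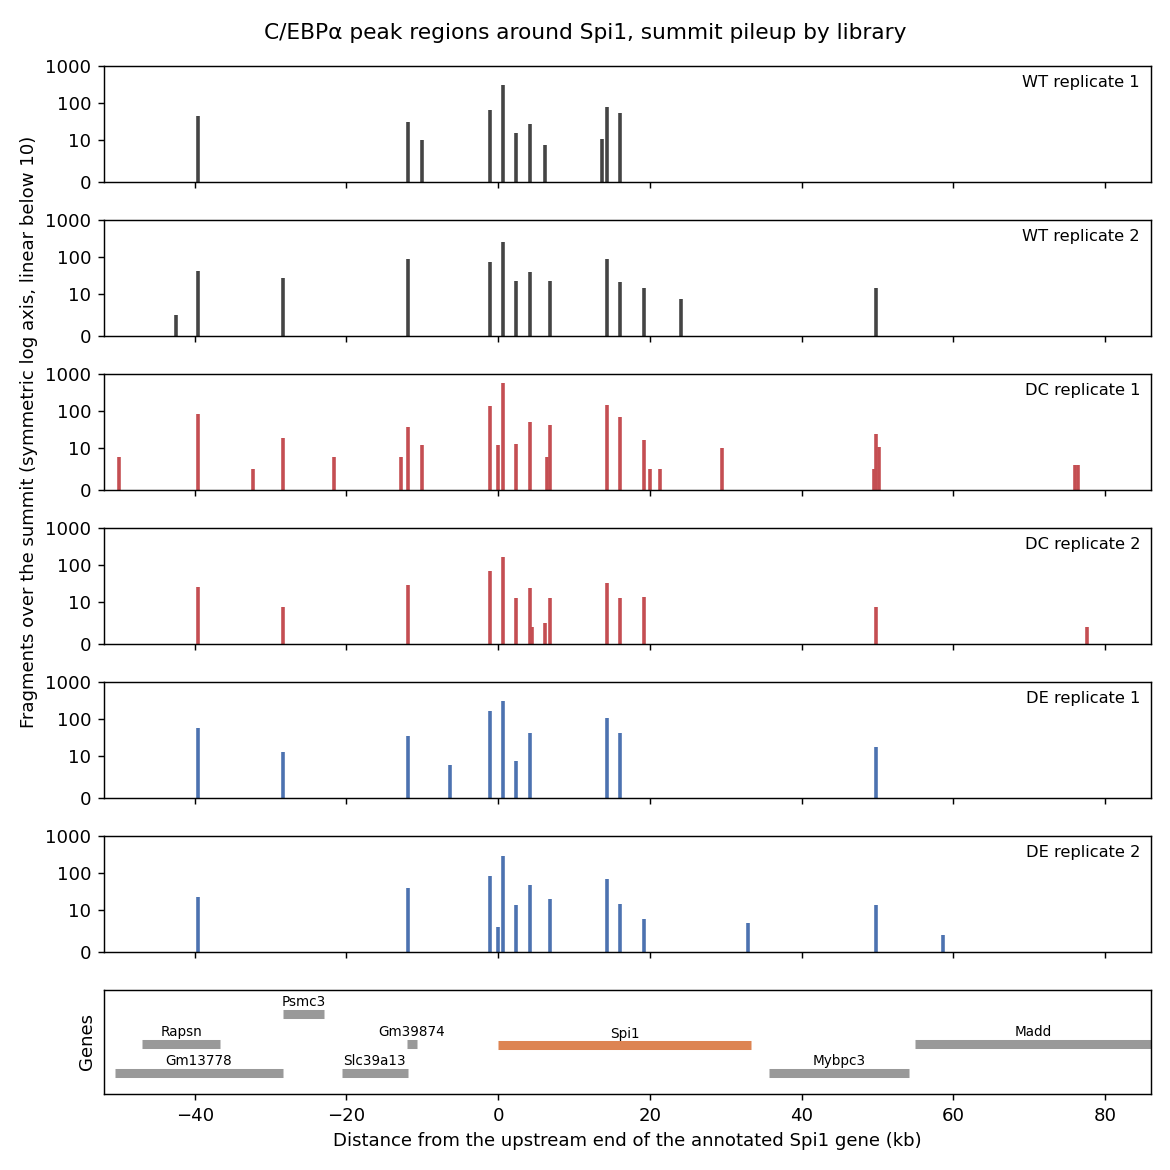
Summit pileup (fragments, symmetric log axis that is linear below 10) of each peak region against the distance of its median summit from the upstream Spi1 end (kb), with 1 panel per library and the annotated genes below. The tallest line, just inside the upstream gene end, stands at 166 to 567 in the 6 libraries, and 12 short lines occur in DC replicate 1 only.

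The libraries differed in how many window regions they held. WT replicates 1 and 2 had 11 and 14, DC replicates 1 and 2 had 26 and 15, and DE replicates 1 and 2 had 11 and 14. DC replicate 1 was the highest, and its whole list was also the longest, with 169943 peaks against 50221 to 82080 in the other 5 libraries. As a share of each library's own regions, the window took 0.0137% and 0.0252% in WT, against 0.0155% and 0.0309% for DC and 0.0214% and 0.0251% for DE. On this scale every genotype had its lower share in batch 1. Both DC libraries held more window regions than any WT or DE library, and the shares of the genotypes overlapped. An exact two-sided permutation test of 2 libraries against 2 cannot go below p = 0.33, so this design cannot call a difference. By this exact permutation test the number gave p = 0.33 for DC against WT, 1 for DE against WT and 0.33 for DC against DE. Of the 35 regions, 20 were called in 1 library only, 57.1% against 76.7% over the union, and 12 of the 20 came from DC replicate 1. Without that library the window held 23 regions.

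Depth enters these values through the summit pileup, the number of fragments (or reads, since the setting of the peak caller is not given in the sources used here) stacked over the highest point of a peak. It was recovered from the deposited fold and p of each peak. Over the regions called in all 6 libraries the median pileup was 34 in both WT libraries, against 58 and 24 for DC and 42 and 32 for DE. The smallest pileup that was still called ranged from 4 to 7. Total read numbers were not given in the sources used here, so levels are also given as scaled pileup, divided by a factor for each library. The factors make the median log2 difference from a region's mean over the 6 libraries equal in all libraries, across 23480 shared regions. Dividing by the background floor, the lowest local background of a library, instead raised the median of all shared regions by 0.84 in DC against WT and 0.55 in DE against WT on the log2 scale. Differences below are relative to the median, and a fall smaller than these shifts would be a rise on the floor scale.

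The strongest region of the window was chr2:91082789-91083635, with its summit 0.69 kb inside the upstream end of Spi1. It had 306 and 260 fragments over the summit in WT replicates 1 and 2, against 567 and 166 for DC and 310 and 281 for DE. It ranked first of the window in each of the 6 libraries. The raw values were highest in DC replicate 1 and lowest in DC replicate 2, as was the median pileup over the shared regions. After scaling they were 309 and 273 in WT, beside 350 and 255 for DC and 259 and 318 for DE. Every genotype's range overlapped those of the other genotypes. The mean scaled pileup was 291 ± 25.2 (SD, n = 2) in WT, 302 ± 67.7 in DC and 289 ± 41.6 in DE. The summit was placed within 15 bp in all libraries. Within each library's own list the pileup of this region stood among the top 0.0942% to 0.641% of regions. The deposited fold over local background, the authors' own value, was 91.4 and 36.8 in WT, against 191 and 46.5 for DC and 78.5 and 72.4 for DE.

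C/EBPα binding at this region did not pass the test in any of the 3 comparisons. The log2 difference of DC from WT was 0.04 ± 0.27 (SE), with a 95% interval of -0.55 to 0.63, by limma on log2 scaled pileup. DE differed from WT by -0.02, with an interval of -0.61 to 0.58, and DC differed from DE by 0.06, from -0.54 to 0.65. With the batch as a term the intervals became -0.35 to 0.43, -0.41 to 0.38 and -0.34 to 0.45. On a linear scale the DC interval with the batch term runs from 0.783 to 1.35 times the WT level, and that of DE from 0.753 to 1.30 times. Changes within these bounds are not excluded. The bounds are no limit of detection, since larger changes can also fail the adjusted threshold with 2 libraries. Within batches the ratios went both ways. The DC to WT ratio was 1.13 in batch 1, with a 95% interval of 0.985 to 1.31 for counting error only, and 0.932 in batch 2, from 0.762 to 1.14. The DE to WT ratio was 0.84 in batch 1, from 0.715 to 0.987, and 1.17 in batch 2, from 0.981 to 1.38.

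The region just outside the gene, chr2:91080856-91081425, had its summit 1.1 kb upstream of the gene end and lies between Slc39a13 and Spi1. It held 67 and 73 fragments in WT, beside 137 and 67 for DC and 163 and 82 for DE. Scaled, these were 67.6 and 76.7 in WT, against 84.6 and 103 for DC and 136 and 92.9 for DE. Both libraries of each variant were above both WT libraries. A non-overlapping rise like this was seen in 17.2% of all shared regions for DC and in 16.1% for DE, and in the window 1 of 8 regions, this one, showed it in each comparison. How often both variants rise together was not counted, and the 2 comparisons share the WT libraries. The log2 difference was 0.37 in DC (interval -0.33 to 1.08) and 0.64 in DE (-0.06 to 1.35), and neither passed limma's test after Benjamini-Hochberg adjustment over 23480 regions. With the batch term the DE interval was 0.14 to 1.14 and its adjusted p in limma was 0.225. The DE to WT ratio was 2.02 in batch 1, from 1.51 to 2.72, and 1.21 in batch 2, from 0.872 to 1.68, so the difference was larger in batch 1. Without DE replicate 1 the log2 difference relative to the median of all regions was 0.36.

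**Figure D2:**
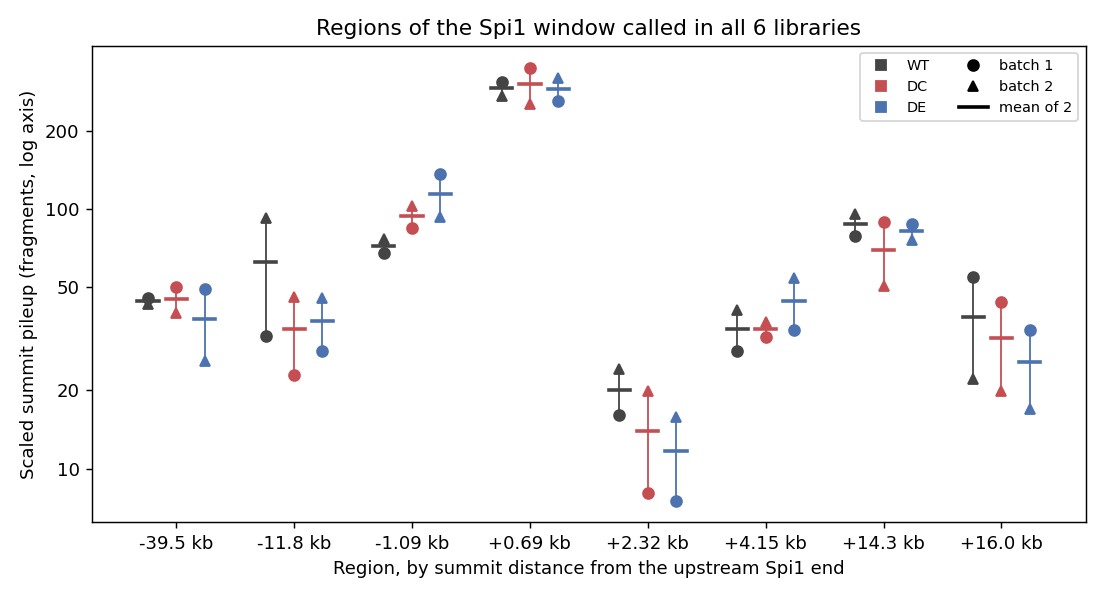
Scaled summit pileup (fragments, log axis) of the 8 regions called in all 6 libraries, by distance from the upstream Spi1 end, with circles for batch 1, triangles for batch 2 and a bar at the mean of the 2 libraries. The +0.69 kb region lies at 255 to 350 in all genotypes, and at the -1.09 kb region both DC and both DE libraries sit above the WT libraries.

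Further inside Spi1, the second strongest WT region was chr2:91096550-91096920, 14.3 kb from the upstream end and 13.6 kb downstream of the strongest summit. It had 78 and 91 fragments in WT, beside 144 and 33 for DC and 105 and 67 for DE. Scaled, WT stood at 78.7 and 95.6, DC at 89.0 and 50.6, and DE at 87.8 and 75.9. DC replicate 2 was the lowest and the 3 genotypes overlapped. The log2 difference was -0.37 in DC (interval -1.15 to 0.40) and -0.09 in DE (-0.86 to 0.69). The spacing of the 2 strongest WT regions is a distance between summits and carries no assignment to an element.

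The order of these 2 weaker peaks changed between libraries. In both WT libraries and in DC replicate 1 the +14.3 kb region was second and the -1.1 kb region lower, and in the other 3 libraries the -1.1 kb region was second. The -1.1 kb pileup divided by the +14.3 kb pileup needs no scaling, and it was 0.859 and 0.802 in WT, against 0.951 and 2.03 for DC and 1.55 and 1.22 for DE. All 4 variant libraries were above both WT libraries, though the counting intervals of DC replicate 1 (0.747 to 1.21) and DE replicate 2 (0.875 to 1.72) overlapped those of WT (0.61 to 1.21 and 0.581 to 1.10). The exact two-sided permutation p was 0.33 for each variant against WT, the smallest that 2 against 2 allows. This ratio was chosen after its values were seen, so the permutation p adds no support, and the 2 comparisons share the WT libraries. How often other pairs of regions separate the genotypes in this way was not counted.

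The region next to it, chr2:91098100-91098518 at +16 kb, had 54 and 21 fragments in WT, beside 71 and 13 for DC and 41 and 15 for DE. The batch 1 library was the higher of the pair in all 3 genotypes, also after scaling (54.5 and 22.1, 43.9 and 19.9, 34.3 and 17.0). No genotype was separated from another.

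The remaining pair of shared regions inside Spi1 was weak. At chr2:91084252-91084807 (+2.32 kb) the pileup was 16 and 23 in WT, against 13 and 13 for DC and 9 and 14 for DE. Scaled, these were 16.1 and 24.2 in WT, beside 8.03 and 19.9 for DC and 7.53 and 15.9 for DE. Both DE libraries were below both WT libraries, a pattern found in 16.1% of all shared regions, and the log2 difference of -0.85 had an interval of -2.03 to 0.32. With the batch term the interval was -1.70 to -0.01 and the adjusted p in limma was 0.406. Relative to the median of all regions the log2 difference was -0.33 without DE replicate 1, -0.56 without WT replicate 2 and -1.39 without DE replicate 2. At chr2:91086378-91086682 (+4.15 kb) the pileup was 28 and 39 in WT, against 52 and 24 for DC and 41 and 48 for DE, and no genotype stood apart after scaling.

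Upstream, the Slc39a13 region whose promoter is printed above, chr2:91070222-91070859 at -11.8 kb, also covers the start of the lncRNA gene Gm39874. It had 32 and 88 fragments in WT, beside 37 and 30 for DC and 34 and 40 for DE. WT replicate 2 was far above the other 5 libraries in pileup, also after scaling (92.5 against 22.9 to 46.0). Its local background was also high, at 17.8 times the floor, beside 17.6 times in DC replicate 2 and 10.7 times in DE replicate 2. The deposited folds were low, at 3.29 and 5.23 in WT, against 7.31 and 4.15 for DC and 4.32 and 7.67 for DE. By fold, WT replicate 2 was not the highest library. The log2 difference of DC from WT was -0.75, with an interval of -1.92 to 0.41. With the batch term the interval was -1.40 to -0.11 and the adjusted p in limma was 0.195. Without WT replicate 2 the log2 difference was 0.01 relative to the median of all regions. This region is the only one called in all 6 libraries that touches the stretch 12 to 16 kb upstream of the annotated gene end, and a second region there was called in DC replicate 1 only. That stretch is counted from the annotated gene end and not from the classic promoter, so it does not place the URE.

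The most distant shared region, chr2:91042669-91043079 at -39.5 kb, lies in Rapsn, which encodes the scaffold protein of muscle acetylcholine receptors. It had 45 and 41 fragments in WT, against 81 and 26 for DC and 59 and 23 for DE. Its summits agreed within 10 bp, the narrowest span of the 8 regions, and the widest span, 119 bp, was at Slc39a13. Scaled, the region held 45.4 and 43.1 in WT, beside 50.0 and 39.9 for DC and 49.4 and 26.1 for DE, and the genotypes overlapped.

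Over the 8 shared regions, 0 passed an adjusted p of 0.05 in DC against WT, in DE against WT or in DC against DE (limma, Benjamini-Hochberg over 23480 regions), and 0 had an unadjusted p under 0.05. The background called was 0% in every comparison and direction without the batch term, with 1872, 1144 and 553 regions at an unadjusted p under 0.05. With the batch term, 3.15% of all regions were higher and 1.15% lower in DC than WT, 1.12% higher and 0.268% lower in DE than WT, and 0.00852% higher and 0.0213% lower in DC than DE. The window had 0 in each, its smallest adjusted p being 0.195, 0.225 and 0.854. An unadjusted p under 0.05 was reached by 1, 2 and 0 of the 8 regions, and by 16.9%, 12% and 8.15% of all shared regions. With floor scaling together with the batch term, 682 regions over the genome were higher and 0 lower in DC than WT, and 6 higher and 0 lower in DE than WT. In that fit 0 window regions passed, with smallest adjusted p of 0.231 for DC and 0.688 for DE against WT, and 0 had an unadjusted p under 0.05. The median log2 difference of the 8 regions was -0.11 in DC against WT, -0.20 in DE against WT and -0.05 in DC against DE, beside medians of -0.02, 0.00 and 0.00 over all shared regions. In simulated data with the same layout of libraries and 200 changed regions, a log2 change of 2 between DC and WT was recovered in 70% of regions. A log2 change of 1 was recovered in 0%. With the batch term these shares were 89.5% and 1.5%. The simulation added counting noise to a spread from the real residuals, which already hold it, and used 1 spread for all regions. These shares are therefore no measure of power at the Spi1 regions.

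**Figure D3:**
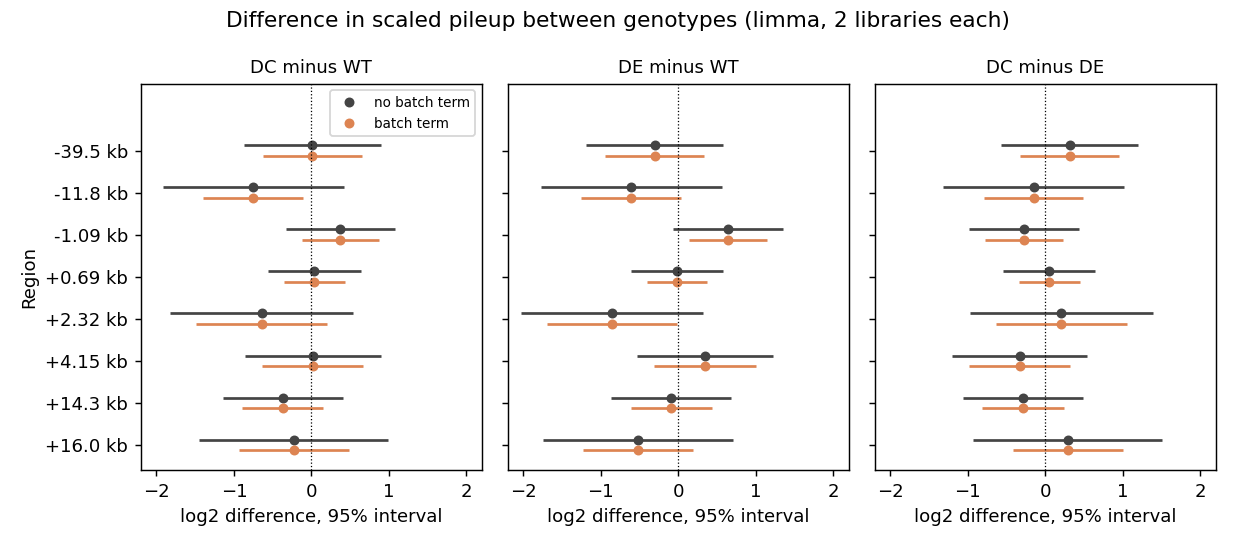
Log2 difference in scaled pileup, with its 95% interval from limma, for each region of the Spi1 window called in all 6 libraries (2 libraries per genotype), without and with the batch as a term. All intervals without the batch term cross 0, and with it 3 do not: -11.8 kb in DC against WT, and -1.09 and +2.32 kb in DE against WT.

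Another 4 regions were called in both libraries of at least 1 genotype. All 4 were called in both DC libraries and in WT replicate 2 and were absent from the list of WT replicate 1. Regions called in both DC libraries were 12 of the 35, 34.3% against 14.0% of the union. For DE they were 9, 25.7% against 12.9%, and for WT 8, 22.9% against 12.1%. DC replicate 1 had the longest list of all libraries. A region at the Psmc3 gene end (chr2:91053769-91054252), which encodes a proteasome subunit, had 28 fragments in WT replicate 2, 19 and 9 in DC, and 13 in DE replicate 1. Inside Spi1, chr2:91089139-91089689 at +6.88 kb had 23 in WT replicate 2, 42 and 13 in DC, and 20 in DE replicate 2. The region chr2:91101478-91101639 at +19.2 kb had 15 in WT replicate 2, 17 and 14 in DC, and 8 in DE replicate 2. The region chr2:91132132-91132342 lies 49.9 kb from the upstream end in Mybpc3, a cardiac muscle gene. It had 15 fragments in WT replicate 2, against 24 and 9 for DC and 18 and 14 for DE, and so was called in all libraries but WT replicate 1. Absence from a list means only that no peak was called. The other 23 regions of the window were called in 1 library (20 regions) or 2 libraries (3 regions), with pileups of 4 to 12.

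The local background that the peak caller set against each summit did not overlap between the batches at 6 of the 8 regions. At the strongest Spi1 region it was 1.77 to 1.93 times the library's floor in the 3 batch 1 libraries and 6.77 to 7.11 times in the 3 batch 2 libraries. At the +14.3 kb region the order was the reverse, with 7.55 to 8.49 times in batch 1 and 2.52 to 2.67 times in batch 2. The exceptions were +16 kb and +4.15 kb, the latter with 3.30 to 5.40 times in batch 1 and 1.53 to 6.16 times in batch 2. The deposited folds at the +14.3 kb region were 6.43, 15.4 and 7.56 in WT, DC and DE of batch 1 and 28.0, 17.6 and 32.6 in batch 2. The fold divides the pileup by this background, so the folds of the 2 batches are not on 1 scale, and genotypes were compared on pileup. Whether the IgG libraries supplied this background is not given in the sources used here.

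**Figure D4:**
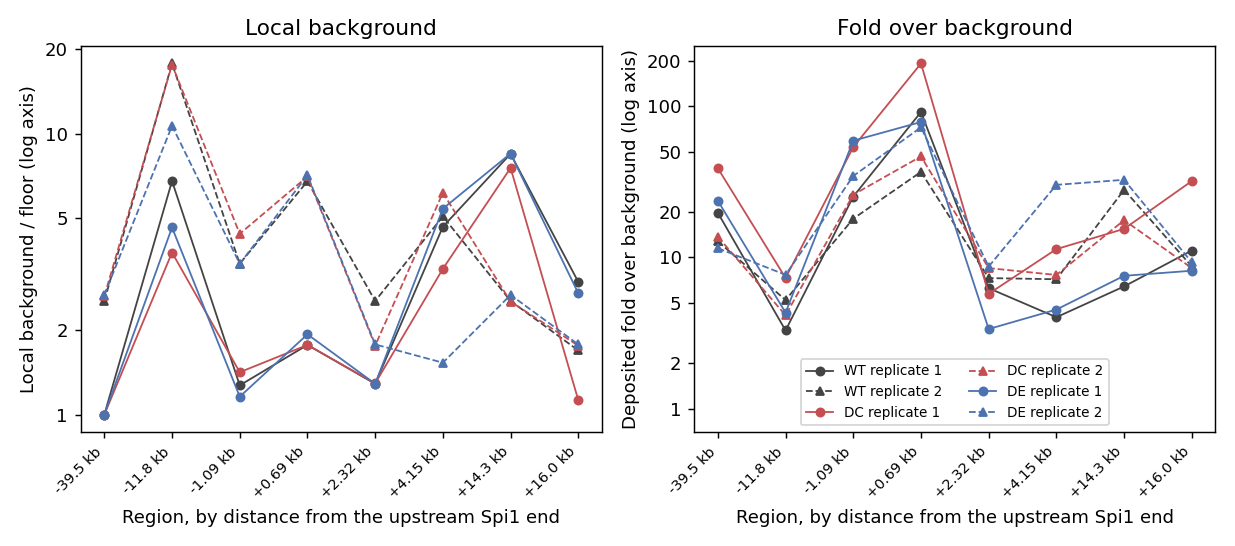
Local background over each library's floor (left, log axis) and deposited fold over background (right, log axis) at the 8 regions, with 1 line per library, solid for batch 1 and dashed for batch 2. At +0.69 kb the background was 6.77 to 7.11 times the floor in batch 2 and at most 1.93 times in batch 1, and at +14.3 kb the order was reversed.

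Set beside other protein-coding genes, Spi1 had many C/EBPα regions in WT. Its 8 regions called in both WT libraries compare with a median of 2 over 21883 genes measured with the same 50 kb flanks, and 13.2% of genes had as many. Per 100 kb of window the value was 6.0 against a median of 1.79, reached by 12.2% of genes. The Spi1 gene itself was overlapped by 5 regions, where the median gene had 0 and 3.60% of genes had as many. The highest mean scaled WT pileup within 10 kb of the gene was 291, against a median of 48.2 over 12411 genes with a region, and 1.61% were as high. These are descriptions of the 2 WT libraries, and only the value per 100 kb takes the length of the gene into account.

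The regions most like the strongest Spi1 region across the 6 libraries were ranked by the root mean square difference of log2 scaled pileup over 10798 genes. The closest was a region shared by Itgb5, an integrin subunit gene, and Umps, an enzyme gene of pyrimidine synthesis, at 0.0866. Its scaled pileups were 312 and 278 in WT, against 313 and 267 for DC and 241 and 328 for DE. A region shared by Tomm40 and Nectin2 followed at 0.0975, and then one near Il17ra, an interleukin receptor gene, at 0.123.

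The wider PU.1 circuit was read from a list of 34 genes, made of 2 close ETS relatives, 18 factors known to act on Spi1 or with PU.1, and 14 PU.1 target genes. Each gene was represented by its strongest WT region within 10 kb. A region called in both WT libraries was found for 32 of the 34, all but Spic and Gata1, and 29 could be tested in all 6 libraries. None passed in any of the 3 comparisons without the batch term (limma, adjusted over all regions), and 2, 0 and 0 had an unadjusted p under 0.05. With the batch term 1 of 29 passed, higher in DC than WT, against 3.15% of all regions, and 0 passed in DE against WT or DC against DE. An unadjusted p under 0.05 was then reached by 5, 5 and 2 of the 29 genes in the 3 comparisons, beside the 16.9%, 12% and 8.15% of all regions.

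Among the regulators, the regions of Fli1, an ETS factor of blood stem cells, and Runx1, a factor known to act at the URE, were of a height like that of Spi1. Fli1 stood at 506 and 228 in WT, beside 426 and 268 for DC and 385 and 233 for DE on the scaled pileup. Runx1 stood at 334 and 243 in WT, against 292 and 235 for DC and 260 and 247 for DE. In both genes the batch 1 library was the higher one in every genotype, and the genotypes overlapped. The gene that passed with the batch term was Cebpe, a C/EBP factor of late granulocytes, with 84.8 and 106 in WT, beside 141 and 205 for DC and 150 and 121 for DE. Its log2 difference of DC from WT was 0.85, with an adjusted p of 0.0164 in limma with the batch term and 0.508 without it. Cebpa, which encodes C/EBPα itself, had 97.9 and 139 in WT, against 106 and 118 for DC and 76.1 and 131 for DE. Irf8, a partner of PU.1 in dendritic cell and monocyte development, had a weak region called in 3 libraries only, at 12.1 and 15.8 in WT and 9.20 in DE replicate 1.

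The ETS relative Spib, a factor of B cells and plasmacytoid dendritic cells, had 57.5 and 32.6 in WT, beside 35.2 and 15.3 for DC and 27.6 and 21.5 for DE, and did not pass. Of the targets, the strongest were Ncf1 (a subunit of the phagocyte oxidase), Elane (neutrophil elastase) and Cd14 (a receptor for bacterial lipopolysaccharide). Ncf1 held 176 and 182 in WT, against 133 and 147 for DC and 154 and 163 for DE. Elane held 169 and 159 in WT, beside 158 and 93.5 for DC and 146 and 171 for DE. Cd14 held 103 and 207 in WT, against 161 and 155 for DC and 172 and 129 for DE. At Ncf1 both libraries of DC and of DE were below both WT libraries, as at 16.8% and 16.1% of all shared regions, and the adjusted p with the batch term was 0.428 for DC and 0.833 for DE in limma. Gata2 and Tlr4 had the same pattern, and at Cebpe and Tcf3 both variants were above both WT libraries. In a single comparison such a rise was seen at 17.2% of all shared regions for DC and 16.1% for DE. The share of regions where both variants separate from WT on the same side was not counted, and the 2 comparisons share the WT libraries. The smallest adjusted p of the list in DE against WT with the batch term was 0.0926 in limma, at Csf3r. The regions of Ncf1, Elane and Cd14 were below the strongest Spi1 region in each library.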

How the data were processed

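The deposited data are 1 C/EBPα peak list per library in mm10 coordinates, and 1 table of merged regions, called with replicates unpooled. The submitters' processing notes name MACS2 2.2.9.1 beside HOMER, Bowtie2, SAMtools and Trimmomatic, without saying how each was set. Per the narrowPeak layout the authors deposited, each peak has a fold enrichment at its summit over the local background, a -log10 p and a -log10 q, and a score that is 10 times the -log10 q. The lists hold peaks with a q up to 0.1. The column of the deposited merged table that could hold a value (other) is 1 in every line, and its 259446 regions have the same starts as the union built here.

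Reads were not among the files, so the planned limma test was run on summit pileup. Pileup k and background were solved from fold = (k + 1) / (background + 1) and the Poisson tail p, and 99.988% to 99.996% of peaks per library gave a whole number within 5% of a step. The strongest peak of each region was used. For the 23480 regions called in all 6 libraries, each library's median difference from the region means was subtracted from its log2 pileup, with no pseudocount. The values were fitted with limma 3.58.1 (trended variance, all 6 libraries, R 4.3.3) and Benjamini-Hochberg adjustment at 0.05. Regions called in fewer libraries were not tested. The fit was checked on simulated data. Intervals within a batch and of ratios are conditional binomial intervals and cover counting error only.

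The labels give the batch, so replicate numbers pair the libraries. Deviations of same-numbered libraries from their genotype means correlated at 0.55 (WT and DC), 0.41 (WT and DE) and 0.38 (DC and DE) over 23480 regions, and the fit with the replicate block is given beside the main values where it changes a count. Regions called in both libraries of at least 1 genotype are named. The members and lists were chosen with earlier results of these data known. Alternatives were other q limits, windows of 20 and 100 kb, joining at 50% of the shorter peak, other scalings and variance models, summed peaks, a minimum mean pileup of 20, a fit on the 4 libraries compared, the batch term, and leaving out each library. Combinations of the batch term with other alternatives were chosen after seeing the data. Gene spans and promoters are from RefSeq GRCm38.p6, the same assembly as mm10.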

Additional observations from a re-analysis of the deposited data

How the results depend on the processing

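The count of changed regions in the Spi1 window was 0 for DC against WT, DE against WT and DC against DE under each of 20 alternatives, the replicate block (batch as a term) and leaving out each library of the genotypes compared included. The smallest adjusted p ranged from 0.145 to 1, 0.0937 to 1 and 0.437 to 1 (limma). The replicate block changed no call in the window. The number of regions called in both WT libraries was 13 with a window of 100 kb, and 11 without WT replicate 2 to 14 without WT replicate 1, the remaining list alone then deciding. Of the WT regions, 87.5% were called in both DE libraries at a q of 0.0001, and 84.6% in both libraries of either variant with the 100 kb window. With 1 batch alone the shares were 81.8% to 85.7% for DC and 72.7% to 78.6% for DE. Scaling by the background floor raised the median of all regions by 0.84 in DC against WT, 0.55 in DE against WT and 0.30 in DC against DE on the log2 scale. Differences below are therefore relative to that median. Scaling, the variance model and the replicate block leave such a difference unchanged by construction. Relative to the median, DE against WT at +0.69 kb changed sign in the fit on the 4 libraries compared, to 0.0061 with and without the replicate block. The log2 difference itself was -0.02 in both fits, and only the median over the tested regions moved.

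With 1 library left out, 20 of 68 values changed direction and none passed the threshold. The lone library of a genotype is then assumed to vary like the others. DC against WT ranged from -0.16 to 0.19 at -39.5 kb, -1.48 to 0.012 at -11.8 kb, -0.20 to 0.29 at +0.69 kb, -1.28 to 5.8e-05 at +2.32 kb, -0.22 to 0.29 at +4.15 kb, -0.79 to 0.052 at +14.3 kb and -0.88 to 0.46 at +16 kb. DE against WT ranged from -0.77 to 0.16 at -39.5 kb, -1.35 to 0.16 at -11.8 kb, -0.16 to 0.12 at +0.69 kb, -1.39 to -0.33 at +2.32 kb, 0.013 to 0.67 at +4.15 kb, -0.21 to 0.056 at +14.3 kb and -1.17 to 0.15 at +16 kb. DC against DE at +0.69 kb ranged from -0.18 to 0.28. Single libraries thus decided the direction at these sites, other than DE against WT at +2.32 and +4.15 kb. At -1.1 kb both variants stayed above WT, at 0.25 to 0.50 for DC and 0.36 to 0.92 for DE. The lists limit what can be called: a pileup under 4 to 7, by library, gave no peak.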
